A study of Mus musculus with 48 samples.

Results

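The 10 transcripts described here, Magi1, Tenm2, Sorbs2, Ppp1r12b, Polr1e, Sbno2, Nfatc2, Acaca, Qtrtd1 and Tmcc3, were taken by name from a table of 26899 genes. All 10 belong to the 149 transcripts that the study listed as enriched in the CNOT7 precipitate over input and control. Listing also required an inverse correlation with CNOT7 expression, taken from separate arrays of cells with CNOT7 knocked down or overexpressed. A fall with CNOT7 was thus itself a condition of the list, on array evidence. The 10 were picked from that list because they had the most support in the CNOT7 and vector libraries. Those libraries therefore chose the members from the list, and CNOT7 values are given only as a description. The vector libraries are also the reference for the mutants, so a low level in vector RIP and a high level in vector input were partly fixed by the choice, and a difference from the vector is not independent of it. The question asked was whether a gain in the precipitate and a fall in the lysate also occur with 3 mutant forms of CNOT7, whose libraries played no part in the choice.

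All cells were 4T1, a mouse mammary carcinoma line of BALB/cfC3H origin, transduced with a lentiviral vector. The vector group carried a control vector and no FLAG-tagged protein, and the CNOT7 group carried FLAG-tagged human CNOT7. The D40A group carried the same protein without deadenylase activity, the E247A/Y260A group a form that does not bind TOB1, and the M141R group a form that does not bind CNOT1. RNA was sequenced from the precipitate of the M2 anti-FLAG antibody, without crosslinking (RIP), and from a portion of the same lysate (input). Each of the 10 groups held replicates 6 to 10, except D40A RIP and D40A input, which lacked replicate 7, for 48 libraries in all. The design text calls the replicates biological, but nothing in the labels ties them to separate transductions. The p-values measure only the spread between these samples, and a change in the level of an RNA cannot be told apart from a change in the cells that hold it.

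CNOT7 is a catalytic subunit of CCR4-NOT, the complex that shortens poly(A) tails in the cytoplasm. CNOT1 is the scaffold to which it binds, and TOB and BTG proteins bring the deadenylase to RNA-binding proteins seated on 3'UTRs. Among these, CPEB proteins recognize the cytoplasmic polyadenylation element (CPE), Pumilio and Nanos the Nanos response element (NRE), and CPSF the polyadenylation signal.

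The members fall into 3 groups by role. The first holds adhesion and cytoskeletal proteins. Magi1, a scaffold of cell junctions, lies on the minus strand of chromosome 6 from 93675455 to 94283917. Tenm2, a teneurin that binds latrophilins across cell contacts, lies on the minus strand of chromosome 11 from 36006656 to 37235964. Sorbs2, an adaptor between actin and adhesion sites, lies on the plus strand of chromosome 8 from 45507788 to 45827906, and Ppp1r12b, a targeting subunit of myosin phosphatase, on the minus strand of chromosome 1 from 134754658 to 134955942. The second group works in the nucleus. Polr1e, a subunit of RNA polymerase I, lies on the plus strand of chromosome 4 from 45018583 to 45036565. Sbno2, a transcriptional coregulator, lies on the minus strand of chromosome 10 from 80056992 to 80105571, and Nfatc2, a calcineurin-activated transcription factor, on the minus strand of chromosome 2 from 168476410 to 168601657. The third group holds metabolic and membrane proteins. Acaca, the acetyl-CoA carboxylase of fatty acid synthesis, lies on the plus strand of chromosome 11 from 84129672 to 84401651. Qtrtd1, a subunit of the enzyme that places queuine in tRNA and named Qtrt2 in the annotation, lies on the minus strand of chromosome 16 from 43861407 to 43926809. Tmcc3, a membrane protein with coiled coils, lies on the plus strand of chromosome 10 from 94311949 to 94590956. Positions are those of GENCODE M21 on GRCm38, matched by gene identifier.

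All 10 are protein-coding genes, and they are long. Their median span was 236632 bases (17983 to 1229309), against 25367 bases over the 6884 tested genes with a position, and 70.0% of the members were longer than 100000 bases against 18.8% of those genes. Where the annotation gives several 3'UTRs the longest was read, on the strand of the transcript. TGTA (the NRE) occurred in 10 of 10 members, AATAAA (the CPSF site) in 7 and TTTTAT (the CPE) in 8, with all 3 in 6. Over 21024 protein-coding genes with such a 3'UTR the shares were 85.5%, 80.1%, 51.6% and 44.1%, and over the 5304 of them that were tested 90.8%, 83.3%, 61.0% and 53.5%. The motifs can overlap by a base, since TTTTAT may run into TGTA and TGTA into AATAAA, and a match is a stretch of letters, not a site shown to be used. The members' 3'UTRs were 424 to 5751 bases long, against medians of 960 bases over the protein-coding genes and 1354 over those tested. All but that of Sbno2 were longer than both medians, and the shares were not adjusted for length. The 4 windows here, written 5' to 3' with TTTTAT in capitals, show the members in which it lies closest to the end of the 3'UTR, 114 bases from it in Tenm2, 187 in Ppp1r12b, 50 in Nfatc2 and 52 in Qtrtd1.
Tenm2, chr11:36006758-36006787, minus strand: tgttcatcgagtTTTTATattaattttaat
Ppp1r12b, chr1:134754833-134754862, minus strand: aactgaatgtatTTTTATgcaattttgagt
Nfatc2, chr2:168476448-168476477, minus strand: tatgtaaagtatTTTTATacggcttatatg
Qtrtd1, chr16:43861447-43861476, minus strand: aaaattgttttcTTTTATgttgtaaatgta

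Depth limits every value on these transcripts. RIP libraries held 1305627 to 10719137 counts, but 95.4% to 98.2% of them fell on the 13 genes with the most RIP counts, which left 35265 to 377943 counts for all others. The 10 members together had 10 to 48 counts in a vector RIP library and 18 to 392 in a mutant one. Input libraries held 337861 to 826768 counts, and the members 76 to 311 of them in vector and mutant cells. Counts under the names of epithelial markers were low in the lysates (medians of 1 for Krt8, 12.5 for Epcam and 13 for Cdh1, with a summed 10 to 107 counts per library over 7 genes), while fibroblast markers summed to 0 to 6 counts, with a median of 0 for 4 of 4. Leukocyte and endothelial markers summed to 1 to 12 and 0 to 13 counts, with Pecam1 at a median of 4.5. Given the strand of counting described next, these counts do not establish the cell type.

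The strand on which reads were counted is not given in the sources used here, and the kit was directional. Actb had a median of 11 counts per input library and B2m 11, whereas Patl2, on the strand opposite to B2m, had 7716.5. Snx22 had 3916.5 against 15 for Ppib on the other strand, and Ccdc107 59941 against 192 for Rmrp. In these 3 pairs the counts stood under the gene opposite to the abundant transcript, so the table appears to count reads on the strand opposite to the RNA. If so, the counts under all 10 members' names would come mainly from RNA of the other strand. Reads of a member's own RNA would then stand under a gene opposite to it, where there is one. Opposite to the members, Sorbs2os had a median of 246.5 input counts against 29.5 for Sorbs2, Tmcc3os 160.5 against 14.5 for Tmcc3, and Syt2 152.5 against 6 for Ppp1r12b. The part of opposite-strand reads in the values of the 10 members was not tested, and the level of a transcript here means the counts under its name.

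Some libraries stood apart from the rest. CNOT7 input replicate 10 correlated with the other inputs at 0.403 to 0.529 across 2839 genes, while each of the other inputs had a median correlation of 0.807 or more. It held 3 counts on the members, all of them on Sorbs2, with the other 9 at 0. The RIP libraries of replicate 9 correlated with those of other numbers at medians of 0.602 to 0.754 across 1539 genes and with each other at 0.851 to 0.911. For the other RIP libraries these medians were 0.745 to 0.8595 and 0.830 to 0.958, so the ranges overlapped, and D40A and E247A/Y260A RIP replicate 10 lay as low as vector RIP replicate 9. The main results are given with and without these libraries. CNOT7 input replicate 10 is in no group of a comparison between mutants and vector, yet it entered every fit through the scaling, the filter on low counts and the shared estimate of the spread. Without it 8081 genes passed the filter, against 6931 with it.

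With CNOT7 itself, all 10 members had a fitted log2 fold change above 0 in RIP over vector RIP (median 1.29, against −0.02 over the 6931 genes tested), and all 10 were below 0 in input over vector input (median −0.74, against −0.04). These are the contrasts that chose the members and carry no test. Of the genes tested, 47% were above 0 in the RIP contrast and 45.9% in the input contrast. Without CNOT7 input replicate 10 the input median was −0.46, with 9 of 10 below 0 and 1 above, and without replicate 9 of every group the RIP median was 1.20, with 9 of 10 above 0. The members just inside and outside the choice cannot be set out, since the rule names genes and gives no cutoff.

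In the precipitates, members were also higher with each mutant than with the vector by their fitted values, but no member passed the test. The log2 fold change was above 0 for 9 of 10 members with D40A (70.2% of all genes tested), 9 of 10 with E247A/Y260A (56%) and 10 of 10 with M141R (57.5%). The median over members was 1.30, 1.09 and 0.91, against 0.46, 0.17 and 0.19 over all genes. Only 5 members had more than 3 counts in some library of both groups, and their medians were 0.73, 0.74 and 0.53, with 4, 5 and 5 above 0. Sbno2 with M141R and Nfatc2 with E247A/Y260A entered the figures over 10 members although no library of either group held more than 3 counts. With p-values adjusted by the Benjamini-Hochberg method, the quasi-likelihood test of edgeR called 0 of 10 members and 0 genes in each (percent called 0), with lowest adjusted p of 0.706, 0.967 and 0.960. DESeq2 also called 0 members. At an unadjusted p under 0.05, 3 members were higher with each mutant, given as a description because vector RIP, in which each of them had 2 or 3 counts in all, helped to choose them. These were Tmcc3, Acaca and Ppp1r12b with D40A (6.39% of all genes), Tmcc3, Acaca and Sbno2 with E247A/Y260A (3.81%), and Tmcc3, Acaca and Ppp1r12b with M141R (4.16%). No member was higher in every library of a mutant than in every vector library, a separation found for 0.519%, 0.26% and 0.202% of all genes tested. All 3 comparisons share the vector libraries. Without CNOT7 input replicate 10 the members' medians were 1.09, 0.90 and 0.67, with 9, 8 and 9 of 10 above 0, against 0.37, 0.11 and 0.12 over all genes, and 0 members were called.

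Tmcc3 had 0, 0, 2, 1 and 0 counts in vector RIP replicates 6 to 10. It had 2, 3, 36 and 0 counts in D40A RIP (replicates 6, 8, 9 and 10), 5, 5, 0, 14 and 0 in E247A/Y260A RIP, and 1, 4, 1, 11 and 5 in M141R RIP. In each mutant the highest count was in replicate 9, and the groups overlapped. Because the vector total was 3 counts, the difference is given as a ratio of summed counts per effective library size with its 95% counting interval, 9.90 (3.16 to 50.0) with D40A, 7.48 (2.27 to 38.8) with E247A/Y260A and 6.80 (2.04 to 35.5) with M141R. For CNOT7 the same ratio was 5.45 (1.58 to 29.02), from 2, 7, 1, 4 and 3 counts. These intervals cover counting error only.

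Acaca had 2 counts in all 5 vector RIP libraries together, in replicates 7 and 9. The counts were 2, 1, 21 and 1 in D40A RIP, 0, 1, 0, 11 and 1 in E247A/Y260A RIP, and 0, 2, 2, 12 and 0 in M141R RIP. Replicate 9 again held most of them. The ratios were 9.06 (2.26 to 78.9), 6.07 (1.38 to 55.4) and 7.42 (1.74 to 66.5). In CNOT7 RIP the counts were 0, 4, 4, 2 and 3, with replicate 9 no higher than the rest.

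Ppp1r12b likewise had 2 counts in vector RIP. It had 0, 1, 24 and 1 in D40A RIP, 0, 3, 0, 5 and 0 in E247A/Y260A RIP, and 0, 2, 0, 11 and 0 in M141R RIP, while each of the 5 CNOT7 RIP libraries held 2. The mutants' ratios were 9.42 (2.36 to 81.9), 3.74 (0.746 to 36.1) and 6.03 (1.37 to 55.0), and every mutant but D40A was at 0 in 3 of its 5 libraries.

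The nuclear factors Sbno2 and Nfatc2 were close to the floor, the level at which none of a group's libraries held more than 3 counts. Sbno2 had 0, 4, 1, 8 and 0 counts in E247A/Y260A RIP against 2 in all vector RIP libraries, a ratio of 6.07 (1.38 to 55.4), and 3 in all of M141R RIP, where no fold is given. With D40A it had 1, 1, 5 and 0 counts, a ratio of 2.54 (0.483 to 25.0). Nfatc2 had 22 of its 23 D40A RIP counts and 10 of its 11 M141R RIP counts in replicate 9. Its ratios to the vector were 5.56 (1.68 to 28.9) and 3.40 (0.899 to 19.0), and with E247A/Y260A it had 3 counts, as with the vector.

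The remaining 5 members were above that floor in vector RIP. Magi1, the junction scaffold, had 0, 6, 4, 4 and 6 counts in vector RIP, 0, 5, 53 and 4 in D40A RIP, 0, 9, 3, 23 and 3 in E247A/Y260A RIP and 1, 4, 1, 32 and 5 in M141R RIP. Outside replicate 9 its counts in the mutants lay within 0 to 9, against 0 to 6 with the vector. The log2 fold changes were 0.73 ± 0.80, 0.74 ± 0.79 and 0.84 ± 0.78 (SE; n = 4, 5 and 5 against 5; edgeR adjusted p = 0.856, 0.967 and 0.963). Sorbs2 had 1, 2, 1, 6 and 5 counts in vector RIP, 0, 2, 69 and 5 in D40A RIP, 0, 6, 2, 21 and 4 in E247A/Y260A RIP and 0, 4, 0, 16 and 4 in M141R RIP. Its log2 fold changes were 1.31 ± 0.76, 0.95 ± 0.77 and 0.47 ± 0.80 (SE), with overlapping groups.

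Polr1e and Qtrtd1 were the best counted members in the precipitates outside replicate 9. Polr1e had 6, 14, 4, 1 and 4 counts in vector RIP and 9, 20, 20 and 1 in D40A RIP, a log2 fold change of 0.54 ± 0.59 (SE). With E247A/Y260A it had 10, 10, 7, 3 and 8 counts (0.41 ± 0.57) and with M141R 15, 8, 9, 6 and 5 (0.53 ± 0.56). In CPM, replicate 9 was its lowest library with the vector, E247A/Y260A and M141R. Qtrtd1 had 3, 16, 5, 2 and 4 counts in vector RIP, and its log2 fold changes were −0.11 ± 0.57, 0.00 ± 0.57 and 0.01 ± 0.56 (SE). Its highest vector library was replicate 7, at 24.0 CPM, a number that D40A lacked. Within a number it was above vector RIP in 4 of 4 D40A, 3 of 5 E247A/Y260A and 3 of 5 M141R pairs, with D40A replicate 8 near a tie (10.45 against 10.42 CPM). Over the 5 members above the floor in vector RIP (Magi1, Tenm2, Sorbs2, Polr1e and Qtrtd1), the median log2 fold change was 0.73, 0.74 and 0.53 with the 3 mutants and 0.56 with CNOT7.

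**Figure D1:**
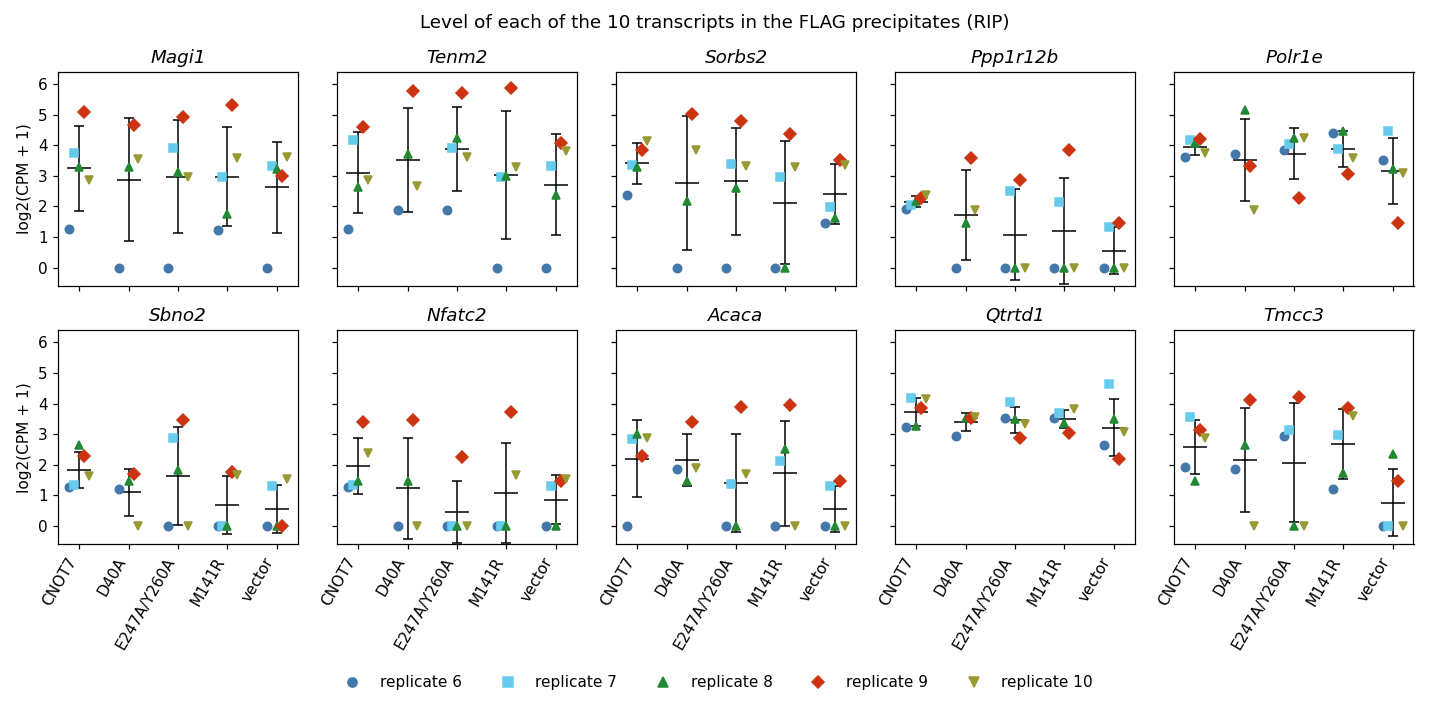
Level of each of the 10 transcripts in every RIP library, as log2(CPM + 1) with TMM-scaled CPM (counts per 1000000 counts of the library), by construct. Symbols mark the replicate number and bars the mean ± SD of the 4 or 5 libraries of a group. Replicate 9 (red diamonds) is the highest library of all 3 mutants for 8 of the 10 members, all but Polr1e and Qtrtd1.

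The gain over the vector moved with replicate 9. Of all RIP counts on the members, 56.4% came from the 5 replicate 9 libraries, which held 37.3% of RIP counts outside the 13 genes. D40A RIP replicate 9 alone held 392 of the members' counts, and without it the shares were 38.9% and 21.5%. In the inputs replicate 9 held 12.9% and 16.4%. By member the share of RIP counts from replicate 9 was 82.0% for Nfatc2, 74.5% for Tenm2, 72.9% for Ppp1r12b, 68.1% for Acaca, 67.2% for Sorbs2, 65.5% for Magi1, 61.7% for Tmcc3, 51.5% for Sbno2, 25.7% for Qtrtd1 and 19.2% for Polr1e. Without D40A RIP replicate 9 it was 42.3% to 67.9% for the first 8, 13.9% for Qtrtd1 and 10.4% for Polr1e. The 3 shortest members, Polr1e, Sbno2 and Qtrtd1, span 17983, 48580 and 65403 bases. Across the 10 members, which share all libraries, the share rose with the span (Spearman's rho 0.527, Pearson's r 0.75 with log10 span), as a description. Among all genes tested, the median share was 64.4% for the 1291 genes longer than 100000 bases, 47.4% for the 2564 of 20000 to 100000 bases and 28.6% for the 3027 shorter ones. Without D40A RIP replicate 9 these medians were 46.9%, 29.5% and 15.6%, and the members' rho and r were 0.479 and 0.694.

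Without replicate 9 of every group, the median log2 fold change of the members over vector RIP was 0.28 with D40A (7 of 10 above 0), 0.59 with E247A/Y260A (7 of 10) and −0.10 with M141R (4 of 10), against 0.00, 0.00 and 0.01 over the 7124 genes then tested. The adjusted p of every member over the vector was 1.0 with each mutant in that fit. Tmcc3 was at 2.12 ± 1.17 and 2.41 ± 1.15 (SE) with E247A/Y260A and M141R. With D40A no fold is given for it, since both groups were then at the floor.

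Within a replicate number the pattern was similar. The summed CPM of the members in D40A RIP was 1.96 above that of vector RIP on the log2 scale in replicate 9, 1.13 in replicate 8, 0.67 in replicate 6 and −0.11 in replicate 10. With E247A/Y260A the difference was 1.89 in replicate 9 and 0.10 to 0.92 in the other 4. With M141R it was 2.02 in replicate 9 and −0.27 to 0.92 in the other 4. With CNOT7 it was 1.497 in replicate 9 and 0.42 to 0.99 in the others. Vector RIP was the library of replicate 9 in which the members stayed low, at 45.8 CPM summed, against 129.4 with CNOT7, 178.4 with D40A, 169.5 with E247A/Y260A and 186.4 with M141R.

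**Figure D2:**
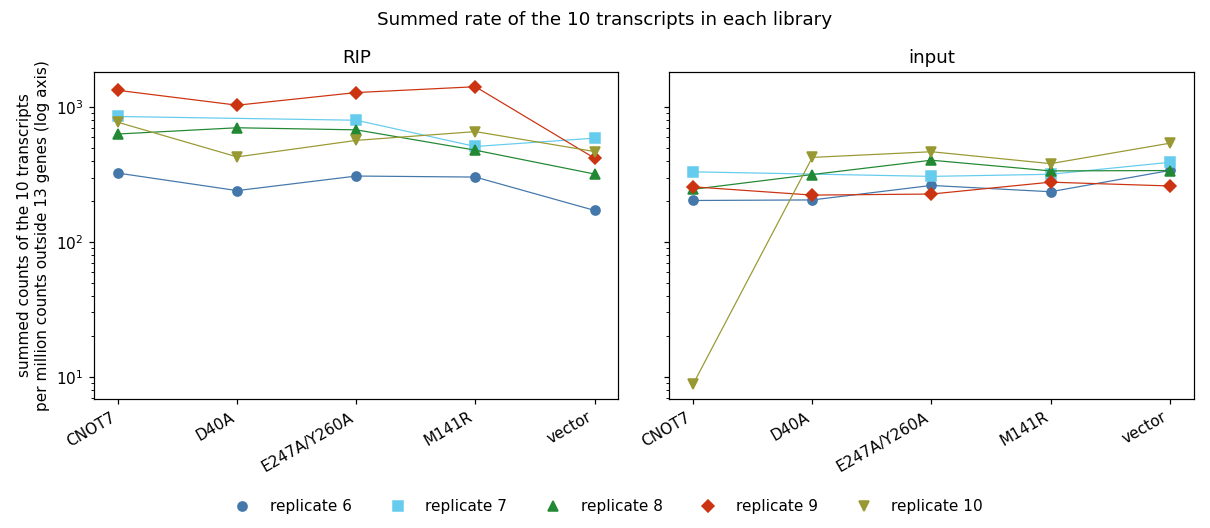
Summed counts of the 10 transcripts per 1000000 counts outside the 13 genes (log axis), by construct, with libraries of the same replicate number joined by a line. In RIP, replicate 9 (red) lies between 1037 and 1422 with CNOT7 and the mutants and at 419 with the vector, and in input the only value apart is CNOT7 replicate 10 at 8.84.

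Each mutant's precipitate was next set against its own input, a comparison that uses no CNOT7 or vector library except through the shared scaling, spread and filter. Tenm2 was the member higher in RIP. It had 2, 7, 119 and 2 counts in D40A RIP against 4, 11, 5 and 4 in D40A input (54.2 CPM in RIP replicate 9 and 2.68 to 12.2 in the other 3, against 1.77 to 5.12 in the inputs). It had 2, 9, 7, 41 and 5 counts in E247A/Y260A RIP against 4, 21, 15, 6 and 8 in the input, and 0, 4, 3, 47 and 4 in M141R RIP against 5, 14, 13, 16 and 6 in the input. In CPM, RIP exceeded the input of the same number in 4 of 4 D40A pairs, 5 of 5 E247A/Y260A pairs and 4 of 5 M141R pairs, though the groups overlapped.

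The log2 fold change of Tenm2 was 2.74 ± 0.86 with D40A (SE; n = 4 each; edgeR adjusted p = 0.0402), 2.21 ± 0.76 with E247A/Y260A (n = 5 each; adjusted p = 0.0467) and 1.95 ± 0.76 with M141R (n = 5 each; adjusted p = 0.0695). Thus 1, 1 and 0 of 10 members were called, against 6.69%, 10.9% and 14.8% of all genes called in either direction and 1.27%, 1.07% and 2.84% called higher. This split depended on the scaling, since DESeq2 called 198, 284 and 553 genes higher and 152, 192 and 193 lower. No member was higher in every RIP library than in every input of a mutant, which was so for 0.981%, 0.707% and 0.606% of all genes. The RIP and input of a construct and number come from the same lysate. A block by replicate number gives each number 1 shift, shared by all constructs and by RIP and input. It therefore does not pair a RIP library with its own lysate. With it more of all genes were called, and the adjusted p of Tenm2 was 0.00298, 0.00256 and 0.00841 by the same edgeR test, which adds a call with M141R. Without replicate 9 of every group the log2 fold changes were 1.12, 1.27 and 0.57 (edgeR adjusted p = 0.524, 0.290 and 0.703). The call with D40A was also lost without D40A RIP replicate 9 or D40A input replicate 6, 9 or 10, and that with E247A/Y260A without its RIP replicate 8 or 9 or its input replicate 6, 9 or 10. Without M141R RIP replicate 6 the M141R comparison gained the call. Without CNOT7 input replicate 10 all 3 passed, with log2 fold changes of 2.89, 2.38 and 2.04 (edgeR adjusted p = 0.0178, 0.0240 and 0.0441). In vector cells, which hold no FLAG-CNOT7, Tenm2 had a log2 ratio of RIP to input of 0.98 ± 0.81 (SE), from 0, 6, 2, 9 and 7 counts in RIP and 6, 23, 9, 3 and 18 in input, and in CNOT7 cells 1.77 ± 0.82. Both are descriptions.

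The other 9 members did not pass the test in any mutant. Values relative to the input depend on the scaling, and the median of all genes tested was −0.37, −0.62 and −0.64, against 0.66, 0.21 and 0.49 over the members. Above 0 were 7, 7 and 8 of 10 members, against 37.4%, 28.2% and 28.4% of all genes. Within a number, the members' summed CPM in RIP was above that in the construct's input in 2 of 4, 2 of 5 and 1 of 5 pairs. Scaled to counts outside the 13 genes, it was above in 4 of 4, 5 of 5 and 5 of 5. In vector cells these were 1 of 5 and 2 of 5 pairs. Nfatc2 had a log2 ratio of 1.77 ± 0.92 with D40A and 1.52 ± 0.89 with M141R (SE; edgeR adjusted p = 0.240 and 0.249), with most of its RIP counts in replicate 9. With E247A/Y260A it had 3 counts in RIP and 15 in the input. In CPM its RIP was above the input of the same number in 2 of 4 D40A, 1 of 5 E247A/Y260A and 2 of 5 M141R pairs. Polr1e had log2 ratios of 0.66 ± 0.57, 0.72 ± 0.53 and 0.36 ± 0.51 with the 3 mutants. It was above the input of the same number in 2 of 4 D40A, 5 of 5 E247A/Y260A and 3 of 5 M141R pairs. DESeq2 called it with E247A/Y260A and M141R. Sorbs2 had −0.36 ± 0.68, −0.61 ± 0.64 and −0.82 ± 0.67 (SE). In vector cells the members' median ratio was −1.01, against −0.85 over all genes, and in CNOT7 cells 1.02, against −0.78. Without replicate 9 the mutants' medians were −0.39, −0.49 and −0.57, against −0.95, −0.88 and −0.94 over all genes. Without CNOT7 input replicate 10 they were 0.90, 0.39 and 0.76, with 8 of 10 members above 0 in each, against −0.04, −0.27 and −0.29 over all genes.

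**Figure D3:**
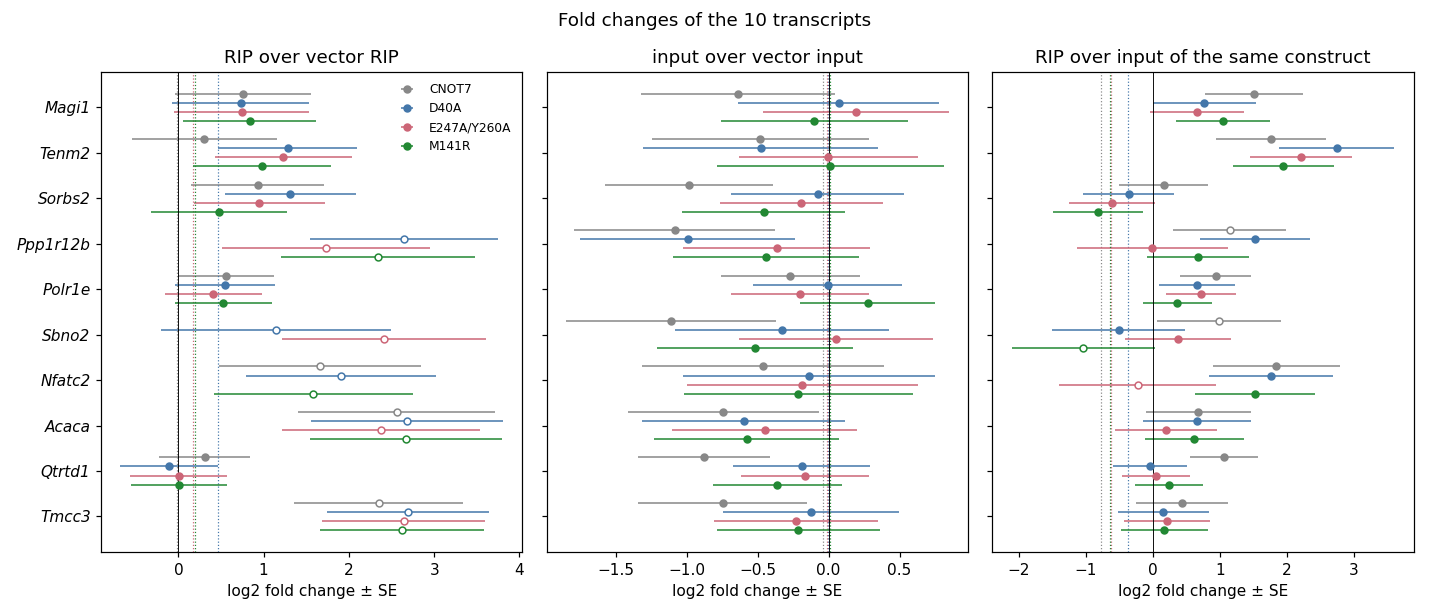
Log2 fold change ± SE of each of the 10 transcripts with CNOT7 (grey) and the 3 mutants over vector RIP (left), over vector input (middle) and of RIP over the construct's own input (right), from 1 fit of all 48 libraries. Open symbols mark a group with at most 3 counts in every library, values with both groups there are left out, and dotted lines give the median of all 6931 genes. Tenm2 lies highest of the members with each mutant in the right panel.

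In the lysates no member fell with any mutant by the test. The log2 fold change over vector input was below 0 for 9, 8 and 8 of 10 members with D40A, E247A/Y260A and M141R, while 49.2%, 48.8% and 51.6% of all genes were above 0. The medians over members were −0.16, −0.19 and −0.29, where all genes had −0.01, −0.01 and 0.01. edgeR called 0 of 10 members (percent called 0), 0 were under an unadjusted p of 0.05, and DESeq2 called 0. With DESeq2 the D40A median was 0.02, with 5 members above 0 and 5 below. Same-numbered inputs deviated together, and within a number the members' summed CPM was below the vector input in 4 of 4 D40A pairs (−0.58 to −0.06 on the log2 scale), 4 of 5 E247A/Y260A pairs (−0.35 to 0.10) and 4 of 5 M141R pairs (−0.51 to 0.17). The replicate block left 0 members called. The lowest adjusted p among members was 1.0 to 3 significant digits in each. No member was lower in every library than in every vector library, which held for 0.491%, 0.0433% and 0.188% of all genes. Acaca had 5, 19, 13, 12 and 12 counts in vector input, 5, 7, 8 and 4 in D40A input, 1, 11, 9, 11 and 10 in E247A/Y260A input and 5, 13, 5, 7 and 13 in M141R input. In CPM it was below the vector input of its own number in 4 of 4, 5 of 5 and 5 of 5 pairs, which share 1 set of vector libraries. Some pairs were near ties, at 2.22 against 2.23 CPM in D40A replicate 6 and 6.38 against 6.41 in E247A/Y260A replicate 9. In M141R replicate 10 the count itself was higher, at 13 against 12. No other member was lower in every pair of any mutant, and the share of all genes lower in every pair was not computed. Its log2 fold changes were −0.60 ± 0.72, −0.45 ± 0.65 and −0.58 ± 0.65 (SE), and the groups overlapped.

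Ppp1r12b had 13, 7, 3, 6 and 13 counts in vector input and 1, 6, 0 and 6 in D40A input, a log2 fold change of −0.99 ± 0.76 (SE), the lowest of any member. With E247A/Y260A it was −0.36 ± 0.66 and with M141R −0.44 ± 0.66. Qtrtd1 had 22, 36, 24, 14 and 55 counts in vector input and values of −0.19 ± 0.49, −0.17 ± 0.45 and −0.36 ± 0.45. Sorbs2, with 21, 60, 36, 23 and 110 counts in vector input, had −0.08 ± 0.61, −0.19 ± 0.57 and −0.46 ± 0.58. Tenm2 was at −0.48 ± 0.83 with D40A and at 0.00 ± 0.63 and 0.01 ± 0.80 with the others, and Polr1e was at 0.27 ± 0.48 with M141R. Sorbs2 and Qtrtd1, the best counted members in the lysates, thus lay within 1 SE of the vector with each mutant. The CNOT7 values, which helped to choose the members, were −0.98 ± 0.59 for Sorbs2, −0.88 ± 0.47 for Qtrtd1, −1.08 ± 0.71 for Ppp1r12b and −0.74 ± 0.67 for Acaca, with CNOT7 input replicate 10 included.

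**Figure D4:**
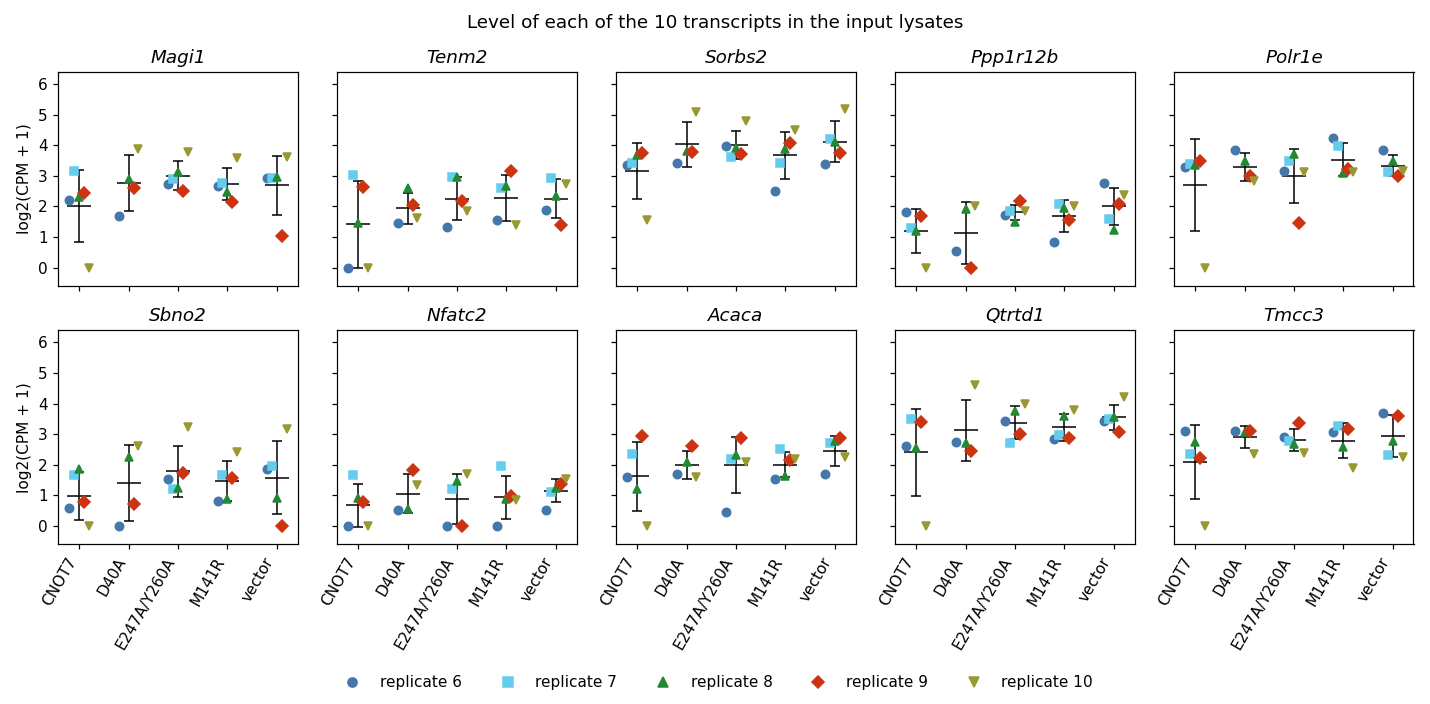
Level of each of the 10 transcripts in every input library, as log2(CPM + 1) with TMM-scaled CPM, by construct, with the mean ± SD of 4 or 5 libraries. CNOT7 replicate 10 is at 0 for 9 of the 10 transcripts, and the groups of the mutants overlap the vector for all 10.

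The mutants were set against CNOT7 as a description, without a test, because the members were chosen for being high in CNOT7 RIP and low in CNOT7 input. In the lysates all 10 members had a log2 fold change above 0 against CNOT7 input with each mutant (52.7%, 54.5% and 55.4% of all genes), with medians of 0.47, 0.61 and 0.53. Without CNOT7 input replicate 10 the medians were 0.21, 0.31 and 0.24, with 6, 8 and 9 members above 0. The summed CPM of the members in that library was 1.97, against 69.4 to 94.8 in the mutants' replicate 10. In the precipitates the medians against CNOT7 RIP were 0.19, −0.08 and 0.03, against 0.38, 0.13 and 0.15 over all genes, with 6, 4 and 5 of 10 members above 0 where 70.8%, 55.6% and 57% of all genes were. Without replicate 9 these medians were −0.92, −0.26 and −0.90, with 1, 2 and 1 of 10 above 0, all genes then being at −0.01, 0.00 and 0.00. In the fit of all libraries the largest member difference was that of Nfatc2 between E247A/Y260A RIP (3 counts in all) and CNOT7 RIP (10 counts), a ratio of 0.292 with a counting interval of 0.0516 to 1.13.

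The mutants were also compared with each other, on libraries that chose no member. In the 3 RIP and the 3 input comparisons edgeR called 0 of 10 members and 0 genes (percent called 0), with 0 members under an unadjusted p of 0.05 and 0 members called by DESeq2. Among the RIP groups the medians were 0.09 for D40A against E247A/Y260A, 0.19 for D40A against M141R and −0.05 for E247A/Y260A against M141R. With 1 library left out these ranged from −1.05 to 0.80, −1.07 to 1.40 and −0.61 to 1.24, and without replicate 9 they were −0.26, 0.31 and 0.22, so none kept its direction throughout. Among the inputs they were −0.07, 0.08 and 0.10. Tenm2 differed by 0.05 ± 0.75, 0.30 ± 0.76 and 0.25 ± 0.74 (SE) between the RIP groups in that order. Nfatc2 had 23 counts in D40A RIP and 3 in E247A/Y260A RIP, a ratio of 5.95 (counting interval 1.80 to 30.9), with 22 of the 23 in replicate 9. With SEs of this size, a missed threshold does not show that the mutants act alike.

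The other 139 genes of the study's list gave 46 with enough counts to be tested. CNOT7 and vector libraries went into that list as well, so their values against the vector are no independent evidence of direction. Over vector RIP their medians were 1.35, 1.00 and 1.13 with D40A, E247A/Y260A and M141R, with 42, 39 and 42 of 46 above 0 and 0 called, against 0.46, 0.17 and 0.19 and 70.2%, 56% and 57.5% over all genes. Without replicate 9 the medians were 0.06, 0.74 and 0.75, with 27, 35 and 37 of the 48 then tested above 0. Over vector input the medians were 0.02, −0.08 and −0.21. Over their own input, Atp2b1, a plasma membrane calcium pump, was higher with D40A (log2 fold change 1.91 ± 0.62 SE, edgeR adjusted p = 0.0491). Dock2, an exchange factor for Rac, and A930011G23Rik were higher with M141R (2.80 ± 0.94 and 2.43 ± 0.76 SE, edgeR adjusted p = 0.0348 and 0.0235). Of 47 paralogs and partners of the members, 23 were tested. Lphn3, a latrophilin and thus of the family that binds teneurins, was higher in E247A/Y260A RIP than in its input (2.87 ± 0.96 SE, edgeR adjusted p = 0.0427). With M141R the junction scaffold Magi2 was higher (2.66 ± 0.86 SE, adjusted p = 0.0285) and the teneurin Tenm4 lower (−1.10 ± 0.37 SE, adjusted p = 0.0363), both by edgeR. In that comparison DESeq2 called 3 of the paralogs and partners higher and 0 lower, so the call of Tenm4 was not made by DESeq2. Over vector RIP and vector input 0 of the 23 were called with any mutant. Without replicate 9, only Tenm4 of these 6 genes passed (−1.40, adjusted p = 0.0408 by edgeR), and the adjusted p of the others was 0.102 to 0.431. The log2 fold change of Dock2 was then 2.82 ± 1.12 (SE), close to its value with all libraries, while those of the other 4 fell to 0.96 to 1.69. With CNOT7 input replicate 10 left out, the other 5 passed and Tenm4 did not (−0.86, adjusted p = 0.0934 by edgeR).

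The genes whose log2 CPM varied most like the mean of the members were Csmd1, Grm8 and Cdk14 over the 24 RIP libraries (Pearson's r 0.888, 0.884 and 0.875). Over the 24 inputs they were Cacna1d, Kcnq1 and Zmiz1 (0.894, 0.891 and 0.889). The points share depth and replicate number, and CNOT7 input replicate 10 is among them.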

How the data were processed

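RIP-seq and input libraries of 4T1 cells were analyzed. The authors deposited whole-number counts of reads per gene, without normalization, for 26899 genes. The submitters' processing notes name BWA, HTSeq and the mm9 build, with no versions. GENCODE M21 (GRCm38) holds 26555 of the identifiers and supplied all positions and 3'UTRs, so coordinates are not those of the deposited file. Every entry names a gene, and 0 columns were left unused. Groups came from sample titles.

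The counts were passed through filterByExpr and TMM scaling, and then through the quasi-likelihood test of edgeR 4.0.16 (R 4.3.3, limma 3.58.1), two-sided, with all 48 libraries in 1 fit, Benjamini-Hochberg adjustment over 6931 genes and a threshold of 0.05. All 10 members passed the filter. CPM are counts per 1000000 of the TMM-scaled library size. Ratios of summed counts carry exact 95% intervals. A member was at the floor in a group where none of the libraries held more than 3 counts, and no fold is given with both groups there. Depth per library is given with the results. The reads carry no molecular identifiers, so intervals and floors reflect counting error alone.

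The analysis was repeated with DESeq2 1.42.0, with library size and no TMM factors, with library size less the 13 genes with most RIP counts, with no filter, with only the 2 groups compared, with the replicate number as a block, with each library left out, and with an unadjusted test of each gene's log2 CPM (prior count 2), the kind the study's methods name. The comparisons with CNOT7 were fitted with the same test, but are given as descriptions. Leaving out replicate 9, D40A RIP replicate 9 or CNOT7 input replicate 10 was added after seeing the data. The fits were tested on simulated data. Replicates differed by more than sampling noise (chi-square over degrees of freedom at least 4.98). Same-numbered inputs deviated together in every input comparison (lowest correlation 0.152). Between RIP groups, and between RIP and input, the lowest was 0.00571, and RIP and input are paired by the shared lysate. Python 3.11.15 was used for the rest.

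The members and gene lists were chosen with earlier results of these data known. All 10 members were fitted in every comparison of the main fit, and the text prints the values of some of them. Of the paralogs and partners and of the other listed genes, up to 3 per direction and comparison past the threshold are named, and the 3 genes most correlated with the members' mean in each kind of library.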

Additional observations from a re-analysis of the deposited data

Results flagged for a closer look

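Among 101 groups of 4 or 5 libraries with more than 3 counts of a member in some library, or with a summed rate, 13 held a library far from its group by Dixon's test. The limit used gives about 1 in 20 groups for independent values with a normal spread. Counts here are low and skewed and the groups share libraries, so that rate is no measure of chance for these 13. In RIP, 6 of the 13 were replicate 9 libraries. Acaca was at 9.56 CPM in D40A RIP replicate 9 against 1.74 to 2.70 in the others, and at 13.9 CPM in E247A/Y260A RIP replicate 9 against 0 to 2.25. In M141R RIP replicate 9, Tenm2 was at 57.3 CPM against 0 to 8.79, Magi1 at 39.0 against 1.34 to 10.99, Ppp1r12b at 13.4 against 0 to 3.41 and Nfatc2 at 12.2 against 0 to 2.20. Qtrtd1 was low in D40A RIP replicate 6, at 6.69 CPM against 10.4 to 10.8.

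In the inputs, replicate 10 was the library apart in each case. Polr1e was at 0 CPM in CNOT7 input replicate 10 against 8.70 to 10.3 in the other CNOT7 inputs. Qtrtd1 was at 23.6 CPM in D40A input replicate 10 against 4.43 to 5.77, and Sorbs2 at 33.3 against 9.76 to 13.04. Tmcc3 was lower there, at 4.098 CPM against 7.45 to 7.60. In E247A/Y260A input replicate 10, Sorbs2 was at 26.7 CPM against 11.4 to 14.9 and Sbno2 at 8.45 against 1.30 to 2.32.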

How the results depend on the processing

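Members called over vector RIP, over vector input and between mutants stayed at 0 in all alternatives that could be fitted, except the unadjusted per-gene test, which gave 1 over vector RIP with D40A (Acaca) and 1 with M141R (Tmcc3). Over their own input, with D40A, E247A/Y260A and M141R in that order, the counts of 1, 1 and 0 became 9, 10 and 10, all lower, with library size without TMM (medians −3.68, −3.94 and −3.59). DESeq2 gave 2 with E247A/Y260A and 2 with M141R (Tenm2 and Polr1e). Without the 13 genes in the library size, with the replicate block, and with only the 2 groups in the fit, M141R gave 1 (Tenm2), as it did without CNOT7 input replicate 10. With only the 2 groups D40A gave 0, from the 4 members then tested, and no median over members could be had for RIP against RIP in 7 comparisons where the filter left none. The replicate block changed no other member call.

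With 1 library left out, calls over own input ranged from 0 to 1 with each mutant. The median over vector RIP ranged from 0.66 to 1.65, 0.39 to 1.60 and 0.09 to 1.17 with D40A, E247A/Y260A and M141R, each lowest without that mutant's own RIP replicate 9. The median over own input ranged from −0.31 to 0.90, −0.32 to 0.71 and −0.14 to 0.91 in that order, against CNOT7 RIP from −1.03 to 0.43 with D40A and −1.28 to 0.37 with M141R, for D40A against E247A/Y260A RIP from −1.05 to 0.80 and against M141R RIP from −1.07 to 1.40, and over vector input from −0.42 to −0.074 with D40A, −0.33 to −0.014 with E247A/Y260A and −0.46 to −0.073 with M141R. Without all replicate 9 libraries, calls over own input were 0 with D40A and 0 with E247A/Y260A, and medians were 0.28 for D40A over vector RIP, −0.39 and −0.57 for D40A and M141R over own input and −0.92 for D40A against CNOT7 RIP. In these the cause was not tested beyond the library left out.

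Genes called over own input, 464, 756 and 1026 in all (88, 74 and 197 of them higher), depended on the setting. They were 6711, 6837 and 6693 without TMM (21 higher in each), 278, 356 and 581 without the 13 genes (205, 246 and 431 higher), 1256, 1531 and 1786 with the replicate block, 89, 412 and 290 with only the 2 groups, and 210, 480 and 490 without replicate 9. Without CNOT7 input replicate 10 they were 491, 524 and 831 (228, 152 and 361 higher). DESeq2 gave 350, 476 and 746 (198, 284 and 553 higher), and no filter gave 714 with D40A (450 higher). With 1 library left out they ranged down to 198, 278 and 491. Over vector RIP, 0 became 2 with each mutant without the filter, and 226, 274 and 255 by the unadjusted per-gene test. Over vector input, 0 became 159, 123 and 137 by that test, and with M141R 4 by DESeq2 and 2 without the filter.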
